A study of Mus musculus with 28 samples.

Results

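Microglia and astrocytes sorted from the same brains of mice without amyloid were compared gene by gene, as a description of how 2 glial cell types of the adult mouse brain divide receptors, transporters, transcription factors, metabolic enzymes and secreted factors between them. The members are 8 RNA sequencing libraries of the 28 in the series, 1 microglia and 1 astrocyte library from each of mice 22, 26, 465 and 759, chosen by their labels and paired by mouse. Microglia were sorted with a Cy7 antibody against Cd11b and astrocytes with a PE antibody against ACSA-2, from cortex, hippocampus and thalamus. All 4 mice carried APOE4fl/fl, a human APOE4 gene that Cre recombinase can remove, and none carried the APPPS1 transgenes. Mice 465 and 759 had no Cre, and mice 22 and 26 were APOE4fl/fl::ALDH1L1-CreERT, with a tamoxifen-inducible Cre under the promoter of an astrocyte gene. Every mouse, with or without Cre, received tamoxifen at 3.8 months of age, in 2 doses of 100 mg/kg, and cells were collected 10 days later. The comparison is therefore one within tamoxifen-treated mice with human APOE4, 2 of which carried the Cre meant to remove it from astrocytes. The 20 libraries of APPPS1 mice, which form amyloid plaques, were used at the end only to show where the amyloid-free comparison differed.

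Microglia are the resident macrophages of the brain. They descend from yolk sac progenitors, depend on signalling through the receptor Csf1r, survey the tissue with motile processes, and clear debris and synaptic material by phagocytosis. Astrocytes arise from neural progenitors, take up glutamate and potassium released by neurons, store glycogen, make cholesterol and couple to each other through gap junctions. Textbook accounts assign innate immune receptors to the former and transmitter handling to the latter, and the present libraries give the size of each difference with its error over 4 animals.

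The labels were first set against marker genes. Levels are given as counts per 1000000 mouse gene counts (CPM), scaled between libraries by the TMM method, always in the order of mice 22, 26, 465 and 759. P2ry12, the ADP receptor that guides microglial processes, stood at 10975, 4848, 13237 and 11804 CPM in microglia and 14.8, 14.9, 11.5 and 13.7 CPM in astrocytes. Csf1r stood at 5840.0, 3152, 9043 and 6502 CPM in microglia and 1.28, 4.44, 1.47 and 0.277 CPM in astrocytes. Siglech, a microglial lectin, stood at 1508, 948, 1619 and 1609.8 CPM in microglia and 1.14, 1.85, 0 and 0 CPM in astrocytes. The astrocyte markers ran the other way, and no group overlapped with the other for any of the 6 genes. Slc1a2, the main astrocytic glutamate transporter, stood at 25.1, 23.7, 3.07 and 9.70 CPM in microglia and 4558, 4425, 4582 and 3603 CPM in astrocytes. Gja1, the gap junction protein connexin 43, stood at 24.2, 16.2, 1.88 and 4.82 CPM in microglia and 5230.3, 6001, 5156 and 3192 CPM in astrocytes. The GABA transporter gene Slc6a11 stood at 1.95, 4.55, 0.317 and 0.712 CPM in microglia and 489, 888, 685 and 346 CPM in astrocytes. On GRCm38 these genes lie at chr3:59216272-59262871, chr18:61100598-61132149, chr7:55768178-55778925, chr2:102658659-102790784, chr10:56377330-56402513 and chr6:114131241-114249952, in the order named. The sort antigens Itgam, which encodes Cd11b, and Atp1b2, which encodes ACSA-2, differed by 12.48 ± 1.40 and -9.31 ± 0.76 on the log2 scale. They chose the cells and are no finding.

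The libraries held between 26162612 and 47110709 counts, the lowest in microglia of mouse 26, and between 20087 and 22210 mouse genes with at least 1 count. The 16 genes of an astrocyte identity list summed to 25750.0 to 39319 CPM in astrocytes and 283 to 474 CPM in microglia. The 15 genes of a microglia identity list summed to 23049 to 60565 CPM in microglia and 92.3 to 136 CPM in astrocytes. Some libraries stood apart. In microglia of mouse 26, the microglia identity genes summed to 23049 CPM, against 45717 to 60565 CPM in the other 3, and the 11 genes of monocytes and neutrophils to 8551 CPM, against 1946 to 4370.4 CPM. These blood cells also carry Cd11b. In astrocytes those 11 genes summed to at most 4.09 CPM. In astrocytes of mouse 759, the 10 oligodendrocyte genes summed to 20805 CPM, against 3562 to 6797 CPM in the other 3, and the 10 genes of pericytes and smooth muscle to 2490.2 CPM, against 214 to 461 CPM. All 17 genes of a list of dissociation and immediate early genes were higher in microglia beyond 4-fold, with sums of 12554 to 14068 CPM against 172 to 491 CPM. The part of these cells and of the dissociation in the results below was not tested, and their values are given where a result touches them. Each value is per unit of RNA in a sort, so fewer cells with a transcript and fewer transcripts per cell cannot be told apart.

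**Figure D1:**
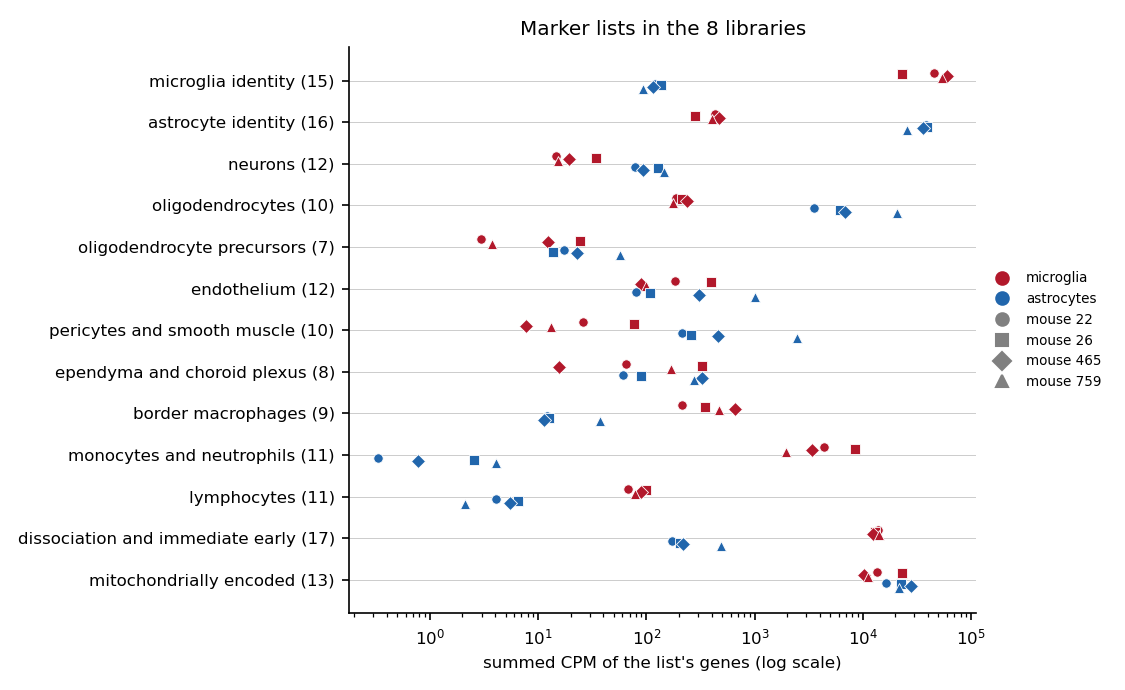
Summed level of each marker list (CPM, logarithmic axis) in the 4 microglia libraries (red) and 4 astrocyte libraries (blue), 1 point per library with the shape giving the mouse, and the number of genes of each list in parentheses. Microglia of mouse 26 have the lowest microglia identity sum and the highest monocyte and neutrophil sum of the microglia libraries, and astrocytes of mouse 759 have the highest oligodendrocyte and pericyte sums.

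Most genes differed between the cell types. Of 17543 genes tested with edgeR's quasi-likelihood test, with mouse as a block, 10311 (58.8%) passed at an adjusted p under 0.05. Of these, 5014 (28.6%) were higher in microglia and 5297 (30.2%) in astrocytes. A test against a difference of 4-fold was used to separate the larger differences: 4416 genes (25.2%) passed it, 1893 (10.8%) as higher in microglia and 2523 (14.4%) as higher in astrocytes. The counts of list members below are to be read against these shares. The 95% interval of the difference lay within 2-fold for 2829 genes (16.1%), and for 1584 without mouse 22. Differences are given as log2 of microglia over astrocytes, so that negative values are higher in astrocytes, and their median over all genes tested was -0.042. The standard error given with each is the size of the difference divided by the square root of its F statistic.

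Among the genes that passed beyond 4-fold at 64 CPM or more, the largest fitted differences toward microglia were in Il10ra, Ms4a6d, Tlr7, Adora3, Ltf, Ms4a4a, Cxcl2, Ngp, Fcrl1, Trem1, Ccr1 and Cd86. Il10ra, a subunit of the interleukin 10 receptor, stood at 502, 433, 523 and 515 CPM in microglia and 0, 0, 0 and 0 CPM in astrocytes; with no count in any astrocyte library, it was at least 30612-fold higher in microglia, taking 3 counts over the 4 libraries as the limit of a count of 0. On the same terms Ms4a6d, a membrane protein of myeloid cells, was at least 15228-fold, the RNA sensor gene Tlr7 at least 12784-fold and the adenosine receptor gene Adora3 at least 10722-fold higher. Ltf and Ngp encode neutrophil granule proteins. Ngp stood at 876, 1489.5, 533 and 281 CPM in microglia and Ltf at 442, 635, 363 and 129 CPM, so both were present in all 4 sorts. Toward astrocytes the 12 were Folh1, Scara3, Tmem246, Slc7a10, Sox5, Lgi1, Chrdl1, Phyhipl, Nr2e1, Nlgn3, Ppp1r3g and Ndp. Folh1, a carboxypeptidase that cleaves the transmitter N-acetylaspartylglutamate, stood at 88.9, 82.5, 98.1 and 66.5 CPM in astrocytes, had no count in any microglia library and was at least 3597-fold higher in astrocytes. Scara3 stood at 0.0337, 0, 0.0529 and 0.110 CPM in microglia and 116, 139, 146 and 81.7 CPM in astrocytes, and Ndp, which encodes the Wnt pathway ligand norrin, at 0, 0.123, 0 and 0.438 CPM in microglia and 151, 120.2, 157 and 111 CPM in astrocytes.

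**Figure D2:**
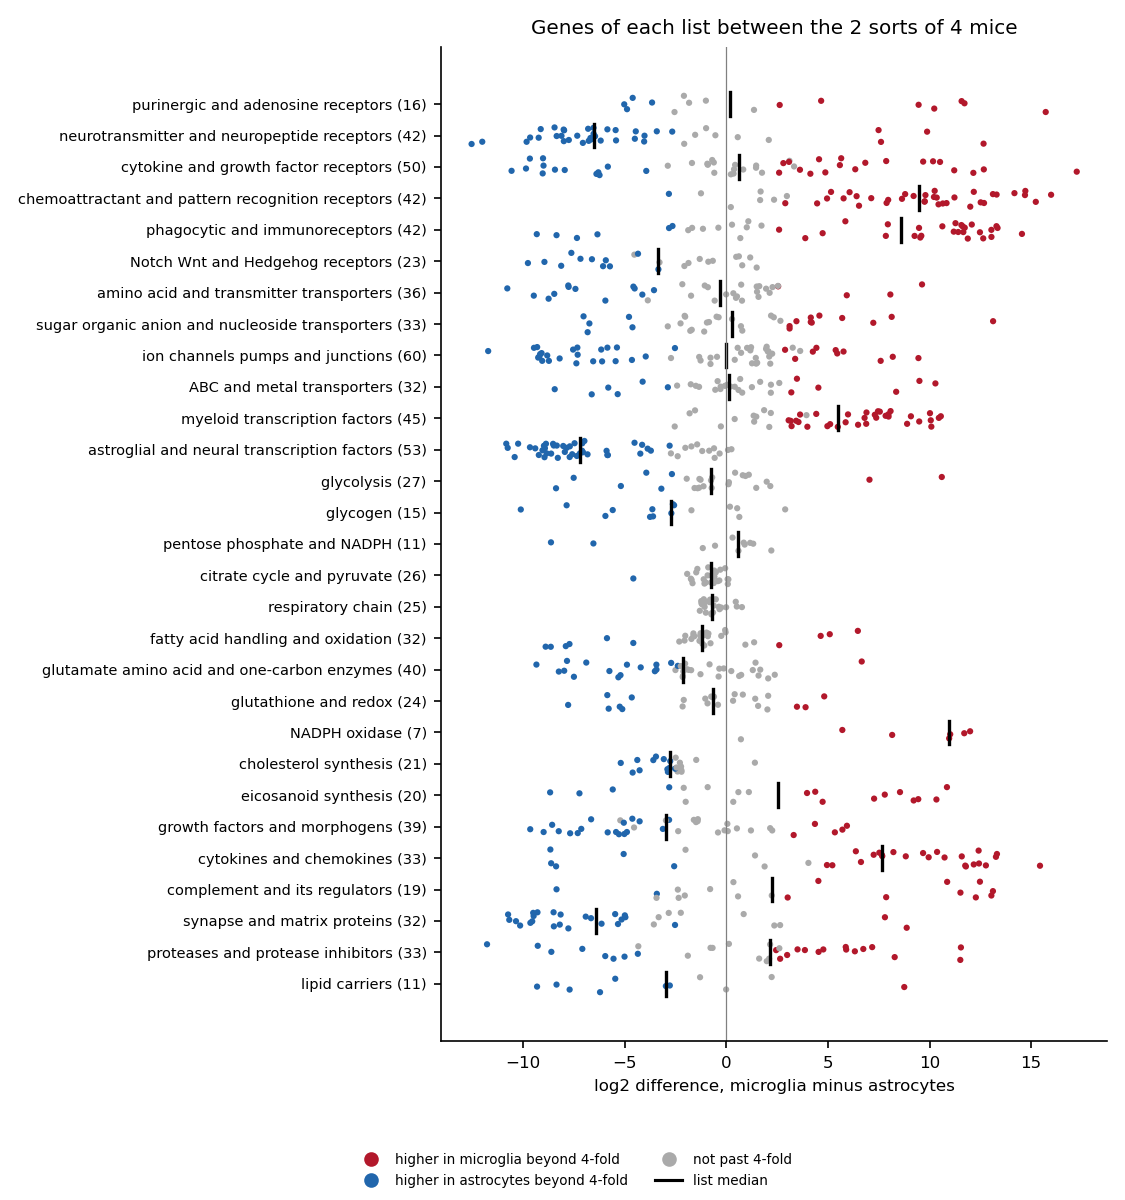
Log2 difference (microglia minus astrocytes, horizontal axis) of every tested gene of each list, 1 point per gene as fitted, with the number of genes in parentheses and the list's median as a black bar. Of the red and blue points, which passed against 4-fold as higher in microglia and in astrocytes, myeloid transcription factors and NADPH oxidase have no blue one, and astroglial transcription factors and cholesterol synthesis no red one.

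Receptors for signals of damage and infection were largely microglial. Of 42 tested chemoattractant and pattern recognition receptors, 39 were higher in microglia, 35 of them beyond 4-fold, with a median difference of 9.48, or 9.01 with the genes that had no astrocyte count set at their lower bound. The chemokine receptor gene Cx3cr1, whose ligand is made by neurons, stood at 3092, 1912, 4720.0 and 3802 CPM in microglia and 0.473, 4.34, 1.49 and 1.15 CPM in astrocytes. C5ar1, the receptor for the complement fragment C5a, stood at 417, 515, 823 and 538 CPM in microglia and 0.0710, 0, 0.0210 and 0.170 CPM in astrocytes, a difference of 13.12 ± 0.82. Both receptors were separated from astrocytes in every mouse, and the lowest microglia library was far above the highest astrocyte library. Tlr7 was followed by Tlr13, a sensor of bacterial RNA, with 211, 196, 307 and 209 CPM in microglia and a ratio of 42964 with a 95% counting interval of 7711 to 1696999. Tlr4, which senses bacterial lipopolysaccharide, differed by 5.15 ± 0.26, with means ± SD of 101 ± 29.5 CPM and 2.77 ± 0.466 CPM (n = 4 here and below). The 3 exceptions in this list were Ackr1, low in both and not passing at 0.22 ± 1.19 (adjusted p = 0.89), Ackr3, a chemokine scavenging receptor that was higher in astrocytes at -2.83 ± 0.41 (adjusted p against 4-fold = 0.046), and Tlr3, the sensor of double-stranded RNA. Tlr3 stood at 72.7, 41.9, 75.6 and 76.4 CPM in microglia and 169, 163, 189 and 108 CPM in astrocytes, and the cell types did not overlap; the difference was -1.25 ± 0.26 (adjusted p = 0.009, and 0.052 in the 2 mice without Cre alone). The formyl peptide receptor genes Fpr1 and Fpr2, which neutrophils also express, had no count in any astrocyte library and stood at 25.03, 166, 30.5 and 13.5 CPM and 13.1, 99.6, 11.4 and 6.30 CPM in microglia, highest in mouse 26.

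Phagocytic and immune receptors were divided by type. Of 42 tested, 27 were higher in microglia and 6 in astrocytes beyond 4-fold, with a median difference of 8.60. Trem2, a lipid-sensing receptor, stood at 1351, 644, 1867 and 1592 CPM in microglia and 0.757, 1.20, 0 and 0.682 CPM in astrocytes, and its adaptor Tyrobp differed by 11.66 ± 0.67. Fcgr1, Fcgr3 and Fcgr2b, receptors for the constant part of antibodies, differed by 13.34 ± 0.56, 12.08 ± 1.09 and 9.54 ± 1.29. Cd33, an inhibitory receptor for sialic acid, stood at 334, 215, 429 and 342 CPM in microglia, a ratio of 30732 with a 95% counting interval of 8508 to 253767. Astrocytes held a different set of engulfment genes. Megf10, an engulfment receptor described in astrocytes, stood at 0.539, 0.164, 0.106 and 0 CPM in microglia and 118, 102, 114 and 97.3 CPM in astrocytes. Its adaptor Gulp1 differed by -6.34 ± 0.97, the phosphatidylserine receptor gene Adgrb1 by -7.35 ± 0.95 and Lrp4, of the LDL receptor family, by -2.65 ± 0.32. The 3 TAM receptors, kinases that bind apoptotic cells through Gas6 and Pros1, were not alike: Tyro3 at -8.36 ± 0.76 and Axl at -2.82 ± 0.25 were higher in astrocytes, whereas Mertk differed by 0.28 ± 0.25 (adjusted p = 0.36). Mertk stood at 573, 381, 633 and 563 CPM in microglia and 468, 464, 539 and 308 CPM in astrocytes; the groups overlapped, and the 95% interval of the difference lay within 2-fold.

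Cytokine and growth factor receptors split along the same line. Of 50 tested, 19 were higher in microglia and 13 in astrocytes beyond 4-fold, with a median difference of 0.63. On the microglial side were receptors of blood cell growth factors and interleukins. Csf3r, the receptor of granulocyte colony-stimulating factor, which neutrophils also express, stood at 464, 509, 666 and 467 CPM in microglia and 0.426, 0, 0.0421 and 0 CPM in astrocytes, Csf2rb differed by 10.51 ± 0.999, and Il21r by 10.17 ± 1.19. Both chains of the TGF-beta receptor were higher in microglia: Tgfbr1 stood at 1551, 885, 1348 and 1447 CPM in microglia and 16.7, 18.5, 14.1 and 14.4 CPM in astrocytes and Tgfbr2 at 237, 137, 223 and 269 CPM in microglia and 2.03, 6.80, 10.6 and 14.9 CPM in astrocytes. The astrocyte side held receptor kinases and neurotrophic receptors. Fgfr3, a receptor of fibroblast growth factors, stood at 3.67, 4.06, 0.0264 and 0.904 CPM in microglia and 1783, 1429.6, 1122 and 861 CPM in astrocytes, Fgfr2 differed by -8.996 ± 1.01 and Fgfr1 by -6.39 ± 0.32. Ntrk2, the receptor of brain-derived neurotrophic factor, differed by -8.43 ± 0.73, Gfra1 by -9.67 ± 0.92, Bmpr1b by -9.02 ± 0.95 and the receptor phosphatase gene Ptprz1 by -9.04 ± 1.47. Cntfr, the receptor chain for ciliary neurotrophic factor, had 23.1, 29.8, 49.3 and 16.1 CPM in astrocytes and a ratio of 1898 with a 95% counting interval of 525 to 15673. The shared signalling chain Lifr stood at 201, 135, 540.0 and 237 CPM in microglia and 207, 181, 185 and 171 CPM in astrocytes and did not pass (adjusted p = 0.39).

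Transmitter receptors lay mainly with astrocytes. Of 42 tested, 32 were higher in astrocytes and 4 in microglia beyond 4-fold, with a median difference of -6.50. The neurotensin receptor gene Ntsr2 stood at 2.32, 1.93, 0.0529 and 0.685 CPM in microglia and 1215, 1263, 653 and 409 CPM in astrocytes. Gabrg1 and Gabrb1, subunits of the GABA-A receptor, differed by -9.65 ± 0.90 and -9.23 ± 0.79, and Adcyap1r1, the receptor for the peptide PACAP, by -9.13 ± 0.83. Cnr1, the cannabinoid receptor of neural cells, and Grik2, a kainate receptor subunit, had no count in microglia and were at least 798-fold and at least 566-fold higher in astrocytes. Cnr2, the cannabinoid receptor of immune cells, was the mirror image, with no count in astrocytes, 13.1, 18.04, 33.9 and 16.9 CPM in microglia and a difference of at least 1272-fold. Hrh2, a histamine receptor, and Vipr1, a receptor for vasoactive intestinal peptide, also lay on the microglial side beyond 4-fold, at 7.49 ± 1.06 and 7.61 ± 1.11.

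Receptors for nucleotides and adenosine, which carry signals of cell damage, were divided within the family. Of 16 tested, 7 were higher in microglia and 4 in astrocytes beyond 4-fold. Besides P2ry12, P2ry13 and P2ry6 were microglial, at 11.57 ± 0.87 and 11.72 ± 1.36, and so was Adora3. The adenosine receptor genes Adora1 and Adora2b were higher in astrocytes: Adora1 stood at 2.86, 3.07, 1.64 and 2.82 CPM in microglia and 84.8, 106, 74.97 and 69.1 CPM in astrocytes and Adora2b at 3.84, 11.7, 3.60 and 1.34 CPM in microglia and 127, 124, 83.8 and 59.96 CPM in astrocytes, without overlap. P2ry14 was also higher in astrocytes, and its 4 astrocyte values were 13.7, 12.7, 23.9 and 185 CPM, highest in mouse 759, whose oligodendrocyte sum was highest. P2ry1, the remaining ADP receptor, was low in both, with means of 0.768 ± 0.897 CPM and 1.87 ± 1.21 CPM, and did not pass (adjusted p = 0.051). P2ry1 did pass with DESeq2's Wald test (adjusted p = 0.006) and with limma voom (adjusted p = 0.041).

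Receptors of the Notch, Wnt and Hedgehog pathways, which pattern neural tissue, were astrocytic where they differed most. Of 23 tested, 11 were higher in astrocytes and 0 in microglia beyond 4-fold, with a median difference of -3.34. Lgr6, a receptor of R-spondins, stood at 0.505, 0, 0 and 0 CPM in microglia and 102, 56.5, 84.8 and 55.3 CPM in astrocytes. The Frizzled genes Fzd10, Fzd2, Fzd1 and Fzd9 differed by -8.13 ± 0.89, -7.63 ± 0.54, -7.18 ± 1.17 and -6.61 ± 0.71. Ror1 had no count in microglia and was at least 67.6-fold higher in astrocytes. The Notch receptors did not move as a block: Notch3 differed by -6.07 ± 0.80 and Notch1 by -1.86 ± 0.21 toward astrocytes, and Notch2 by 1.17 ± 0.22 toward microglia (adjusted p = 0.005, and 0.054 in the mice without Cre alone). Notch2 stood at 821, 983, 667 and 711 CPM in microglia and 376, 335, 395 and 298 CPM in astrocytes, without overlap.

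Of 161 transporters tested, 48.4% differed beyond 4-fold, 31 toward microglia and 47 toward astrocytes. For amino acids and transmitters, 12 of 36 were higher in astrocytes and 4 in microglia. The largest astrocyte difference was in Slc7a10, a carrier of small neutral amino acids including D-serine, at 0.337, 0.697, 0.0264 and 0.219 CPM in microglia and 630.3, 589.9, 437 and 284 CPM in astrocytes. The glycine transporter gene Slc6a9 differed by -7.78 ± 0.35, and Slc38a3, which moves glutamine, by -7.76 ± 0.59. Slc1a3, the other astrocytic glutamate transporter, stood at 293, 170.3, 449 and 349 CPM in microglia and 8292, 8127, 7314 and 5193 CPM in astrocytes, a level in microglia that was 2.10% to 6.72% of that in astrocytes of the same mouse, the highest share among the 16 astrocyte identity genes in each mouse. On the microglial side stood Slc15a3, a lysosomal peptide transporter, at 9.63 ± 0.71, and Slc7a8 and Slc7a7, light chains of amino acid exchangers, at 8.07 ± 0.61 and 5.93 ± 0.42. Slc7a8 stood at 364, 179, 573 and 424 CPM in microglia and 0.875, 2.15, 1.03 and 1.58 CPM in astrocytes. The heavy chain that these light chains need, Slc3a2, differed by -0.58 ± 0.32 (adjusted p = 0.17).

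Carriers of sugars, organic anions and nucleosides were divided between the cell types, with 11 of 33 higher in microglia and 5 in astrocytes beyond 4-fold. Slc2a5, the fructose transporter GLUT5, stood at 778, 307, 1120.5 and 762 CPM in microglia and 0.213, 0, 0.168 and 0 CPM in astrocytes. Slc2a1, the glucose transporter GLUT1, was higher in astrocytes by a smaller margin, at 54.8, 71.5, 78.3 and 67.6 CPM in microglia and 199.8, 214, 265 and 206 CPM in astrocytes, a difference of -1.70 ± 0.16 (adjusted p = 0.0005) that did not pass against 4-fold. Slco2b1, an organic anion transporter, differed by 8.13 ± 0.88 toward microglia, and Slco1c1, which carries thyroid hormone, by -6.74 ± 0.60 toward astrocytes. The monocarboxylate transporters, which move lactate and pyruvate, split likewise: Slc16a3 differed by 5.70 ± 0.39, Slc16a7 by 4.58 ± 0.47 and Slc16a1 by -2.05 ± 0.22. Slc16a3 stood at 54.9, 120.1, 51.6 and 43.04 CPM in microglia and 0.875, 1.83, 0.652 and 1.88 CPM in astrocytes and Slc16a1 at 26.98, 20.4, 16.6 and 24.1 CPM in microglia and 75.4, 81.4, 97.9 and 108 CPM in astrocytes; in both, the cell types were apart in every mouse.

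Among ion channels, pumps and junction proteins, 24 of 60 were higher in astrocytes and 10 in microglia beyond 4-fold. Astrocytes held the genes known for potassium buffering, water movement and coupling: Kcnj10, the inward rectifier Kir4.1, stood at 4.58, 2.83, 3.83 and 5.95 CPM in microglia and 316, 323, 268 and 254 CPM in astrocytes, the water channel gene Aqp4 differed by -8.73 ± 0.94, and the connexin gene Gjb6 by -8.81 ± 0.86. Kcnk10, a background potassium channel, had no count in microglia and was at least 468-fold higher in astrocytes. Kcnn2 and Kcnk1 differed by -9.46 ± 0.83 and -9.26 ± 0.95. Microglia held other potassium channels, with Kcnk6 at 9.45 ± 0.72 and Kcnj2 at 5.46 ± 1.28, the proton channel gene Hvcn1 at 8.19 ± 0.63 and the calcium-permeable channel gene Trpm2 at 7.59 ± 0.62. Kcnk13, the channel THIK-1 that sets the resting potential of microglia, stood at 57.4, 25.9, 72.6 and 74.7 CPM in microglia and 7.19, 12.3, 9.03 and 19.8 CPM in astrocytes; it passed at 2.26 ± 0.39 (adjusted p = 0.004) but not against 4-fold. Lrrc8a, the essential subunit of the volume-regulated anion channel, stood at 590.4, 252, 938 and 777 CPM in microglia and 997, 1084, 1071 and 856 CPM in astrocytes and did not pass (adjusted p = 0.13).

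Of 32 ABC and metal transporters, 6 were higher in microglia and 6 in astrocytes beyond 4-fold, with a median difference of 0.12. Abcc3, an organic anion exporter, and Slc11a1, a metal transporter of phagosomes, differed by 10.29 ± 0.61 and 9.50 ± 0.76. Slc40a1, the iron exporter ferroportin, stood at 635, 385, 840.1 and 617 CPM in microglia and 15.05, 20.4, 23.00 and 65.01 CPM in astrocytes, and the ferritin light chain gene Ftl1 differed by 3.20 ± 0.24. The ferritin heavy chain gene Fth1 did not pass at 0.78 ± 0.31 (adjusted p = 0.07, and 0.037 without mouse 759). In astrocytes, Slc30a10, a manganese exporter, and Heph, a ferroxidase, differed by -8.45 ± 0.51 and -6.62 ± 0.69. The cholesterol exporter gene Abca1 stood at 250.3, 151, 134 and 177 CPM in microglia and 139, 155, 142 and 93.03 CPM in astrocytes and did not pass (adjusted p = 0.2), whereas Abcg1, another sterol exporter, differed by 3.47 ± 0.58 toward microglia.

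Transcription factors were divided by lineage. Of 45 tested myeloid factors, 33 were higher in microglia and 0 in astrocytes beyond 4-fold, with a median difference of 5.48. Of 53 astroglial and neural factors, 41 were higher in astrocytes and 0 in microglia, with a median difference of -7.21. Both lists were drawn up from what is known of each lineage, so their direction was built in, and their counts are a description. Spi1, which encodes PU.1, the factor required for myeloid cells, stood at 99.99, 179, 116 and 126 CPM in microglia and 0.0237, 1.12, 0 and 0 CPM in astrocytes. Irf8, its partner in microglial development, stood at 388, 318, 356 and 392 CPM in microglia and 0.0710, 0.203, 0.295 and 0.447 CPM in astrocytes. Irf5, Runx1 and Ikzf1 differed by 10.46 ± 1.09, 10.09 ± 0.84 and 10.06 ± 1.28. All 5 were apart from astrocytes in every mouse. Sall1, a factor known for setting microglial identity, was an exception in size: it stood at 540.4, 338, 279 and 369 CPM in microglia and 52.5, 58.5, 40.9 and 30.5 CPM in astrocytes, so that astrocytes held 8.25% to 17.3% of the microglial level, the highest share among the 15 microglia identity genes in each mouse. Bhlhe40 and Tcf4 were higher in astrocytes, at -2.54 ± 0.47 and -1.54 ± 0.19, although they stood in the myeloid list. Cebpb, a factor of inflammatory gene expression, stood at 83.2, 400.3, 58.4 and 62.3 CPM in microglia, highest in mouse 26.

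On the astroglial side, Sox9, the factor that specifies glial cells, stood at 3.34, 5.12, 0.159 and 1.75 CPM in microglia and 705, 688, 633 and 456 CPM in astrocytes. Sox5 stood at 0, 0, 0 and 0.137 CPM in microglia and 76.7, 85.4, 79.1 and 49.5 CPM in astrocytes and Nr2e1, a nuclear receptor of neural stem cells, at 0.202, 0, 0 and 0.0548 CPM in microglia and 118, 114, 70.9 and 48.00 CPM in astrocytes. Gli2, an effector of Hedgehog signalling, had 44.97, 39.4, 29.3 and 21.6 CPM in astrocytes and a ratio of 2171 with a 95% counting interval of 601 to 17931; Rfx4 and Npas3 differed by -9.66 ± 0.90 and -9.40 ± 0.997. The nuclear factor I family was not uniform: Nfib differed by -7.47 ± 1.003, Nfia by -1.19 ± 0.23 and Nfix by -0.84 ± 0.15, while Nfic did not pass at -0.33 ± 0.17 (adjusted p = 0.13). Etv5 and Hes1 stood in microglia and astrocytes at 150.1 ± 53.3 CPM and 135 ± 24.5 CPM for Etv5 and 55.97 ± 25.8 CPM and 43.5 ± 3.20 CPM for Hes1, and did not pass (adjusted p = 0.81 and 0.51). Id2, an inhibitor of basic helix-loop-helix factors, was abundant in both, at 546, 517, 478 and 601 CPM in microglia and 1396, 1344, 1734 and 1341 CPM in astrocytes, with a difference of -1.44 ± 0.22 (adjusted p = 0.003). The oligodendrocyte lineage genes Olig1 and Sox8 stood at 91.7, 79.6, 65.5 and 86.2 CPM and 106, 101, 94.9 and 61.96 CPM in astrocytes, beside the oligodendrocyte sums given above.

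Because Spi1 differed so widely, the promoters of genes higher in microglia were searched for the purine-rich string that PU.1 is known to bind, GAGGAAGT on either strand, in the 250 bases before each RefSeq gene start on GRCm38.p6. A match is a string of letters, not a measured site, and its bearing on expression was not tested. Windows were at hand for 11961 of the 17543 genes tested, 15255 windows in all. The string was in 2.5% of them, in 6.3% of the 1587 windows of genes higher in microglia beyond 4-fold and in 1.13% of the 2388 windows of genes higher in astrocytes beyond 4-fold. A TATA box, spelled TATAAA, was in 6.82%, 11% and 7.41% of the same 3 sets, and the AP-1 string TGACTCA in 3.35%, 5.36% and 3.52%. The shares for the other strings, searched in the same way, were 10%, 10.1% and 12.4% for the nuclear factor I string TTGGCA, 10.6%, 9.01% and 10.6% for the RFX string GTTGCC, 10.8%, 10.8% and 13.4% for the TEAD string GGAATG, and 6.68%, 8.13% and 7.62% for the SOX string ACAATG. The MEF2 string CTAAAAATA was in 0.308%, 0.378% and 0.419%. Each string was searched on its own, so matches of different strings may share bases.

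The windows of 5 genes that were higher in microglia beyond 4-fold and held the PU.1 string are shown, 1 for each of complement, protease, prostaglandin and tetraspanin genes of the lists and a further prostaglandin enzyme, 5 prime to 3 prime on the gene's strand, with the string in capitals. They were chosen after the search from genes named here. C1qc, a chain of the complement starter C1q, stood at 1448, 940.4, 2170.1 and 2500.0 CPM in microglia and 0.781, 2.47, 0.463 and 0.703 CPM in astrocytes, and its window is chr4:136892915-136893164 (minus strand). Ctsc, the protease cathepsin C, stood at 766, 735, 1087 and 815 CPM in microglia and 10.9, 13.9, 24.03 and 11.5 CPM in astrocytes, with its window at chr7:88277835-88278084 (plus strand). Hpgds, the prostaglandin D synthase of blood cells, stood at 646, 350.5, 695 and 703 CPM in microglia and 1.30, 1.20, 1.16 and 0.426 CPM in astrocytes, with its window at chr6:65144731-65144980 (minus strand). Cd37, a tetraspanin of immune cells, stood at 442, 343, 574 and 493 CPM in microglia and 0.237, 1.72, 0.463 and 0.703 CPM in astrocytes, with its window at chr7:45238840-45239089 (minus strand). Ptgs1, cyclooxygenase 1, stood at 1132, 586, 1551 and 1203 CPM in microglia and 52.6, 41.2, 49.6 and 22.6 CPM in astrocytes, with its window at chr2:36230176-36230425 (plus strand). The string began 195, 151, 49, 25 and 24 bases before the gene start, in the order named, and microglia lay above astrocytes in every mouse for all 5.
C1qc: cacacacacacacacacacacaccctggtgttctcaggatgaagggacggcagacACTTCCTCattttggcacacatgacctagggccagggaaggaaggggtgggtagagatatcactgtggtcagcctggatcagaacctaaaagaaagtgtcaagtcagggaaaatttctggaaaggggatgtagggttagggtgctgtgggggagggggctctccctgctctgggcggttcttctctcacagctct
Ctsc: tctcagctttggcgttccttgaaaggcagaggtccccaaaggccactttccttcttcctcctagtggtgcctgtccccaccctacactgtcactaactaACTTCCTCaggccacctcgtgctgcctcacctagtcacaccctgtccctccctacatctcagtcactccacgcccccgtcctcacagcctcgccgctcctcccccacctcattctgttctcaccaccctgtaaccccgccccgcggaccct
Hpgds: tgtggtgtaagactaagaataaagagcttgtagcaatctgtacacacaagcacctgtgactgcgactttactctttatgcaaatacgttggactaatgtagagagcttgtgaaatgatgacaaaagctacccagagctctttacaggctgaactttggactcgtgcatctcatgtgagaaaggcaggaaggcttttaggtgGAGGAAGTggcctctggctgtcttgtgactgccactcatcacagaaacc
Cd37: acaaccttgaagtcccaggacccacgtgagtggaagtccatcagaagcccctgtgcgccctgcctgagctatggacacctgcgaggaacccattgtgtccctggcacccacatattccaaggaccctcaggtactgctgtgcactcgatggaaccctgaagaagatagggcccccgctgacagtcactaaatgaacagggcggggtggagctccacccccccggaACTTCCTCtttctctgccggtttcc
Ptgs1: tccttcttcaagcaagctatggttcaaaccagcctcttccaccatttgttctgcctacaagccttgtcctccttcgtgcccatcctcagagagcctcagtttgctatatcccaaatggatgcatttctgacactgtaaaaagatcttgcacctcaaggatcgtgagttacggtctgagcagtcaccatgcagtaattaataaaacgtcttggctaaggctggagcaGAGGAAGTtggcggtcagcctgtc

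Most metabolic genes that passed were higher in astrocytes: of 248 tested, 47 passed as higher in microglia and 151 as higher in astrocytes, and 35.9% differed beyond 4-fold, 26 and 63 respectively. For receptors, transcription factors and secreted factors the share beyond 4-fold was 74.0%, 75.5% and 71.1%. All of these lists were chosen with earlier results of these data known, and the factor lists by lineage. The shares depend on that choice and do not rank the classes. In glycolysis, 5 of 27 genes passed as higher in microglia and 15 in astrocytes, with a median difference of -0.75. Isoforms carried the largest differences. Hk2 and Hk3, hexokinases that commit glucose to glycolysis, were microglial: Hk2 stood at 330.4, 302, 276 and 408 CPM in microglia and 5.04, 0.750, 3.93 and 2.17 CPM in astrocytes and Hk3 at 100.0, 69.5, 154 and 104 CPM in microglia and 0, 0.304, 0 and 0 CPM in astrocytes. Hk1, the common brain hexokinase, was higher in astrocytes at -1.57 ± 0.21 (adjusted p = 0.002). Aldoc, the brain form of aldolase, stood at 48.9, 35.5, 15.1 and 22.5 CPM in microglia and 9749, 9880.3, 9641 and 7945 CPM in astrocytes, whereas Aldoa differed by -0.72 ± 0.22 and no longer passed without mouse 22, 465 or 759 (adjusted p = 0.17, 0.053 and 0.1). Pdk4 and Pfkm differed by -7.51 ± 0.66 and -5.19 ± 0.24 toward astrocytes, and Pdk1 by 2.16 ± 0.29 toward microglia. The last steps did not pass: Pkm, pyruvate kinase, differed by 0.11 ± 0.25 and Ldha by 0.43 ± 0.22 (adjusted p = 0.73 and 0.14), and both intervals lay within 2-fold.

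Glycogen genes were astrocytic, with 10 of 15 higher in astrocytes beyond 4-fold, 0 in microglia, and a median difference of -2.71. Ppp1r3g and Ppp1r3c, subunits that direct protein phosphatase to glycogen, stood at 0, 0.246, 0 and 0.0548 CPM in microglia and 88.2, 89.4, 73.8 and 40.7 CPM in astrocytes for the first and differed by -7.86 ± 1.03 for the second. Of the 3 glycogen phosphorylases, Pygm and Pygb were higher in astrocytes at -5.95 ± 0.47 and -3.61 ± 0.38, and Pygl, the liver form, in microglia at 2.89 ± 0.53 (adjusted p = 0.005), which did not pass against 4-fold. Gbe1 and Gyg, which branch and prime glycogen, did not pass, at 0.18 ± 0.22 and 0.64 ± 0.27.

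Mitochondrial genes leaned to astrocytes by small amounts. In the citrate cycle, 18 of 26 genes passed as higher in astrocytes and 0 in microglia, with a median difference of -0.74, and in the nuclear genes of the respiratory chain 17 of 25 and 1, with a median difference of -0.73. In these 2 lists, 1 gene lay beyond 4-fold, Pcx, the pyruvate carboxylase that refills the cycle, at 4.58, 2.87, 5.34 and 7.07 CPM in microglia and 123, 152, 103 and 88.3 CPM in astrocytes. Cs, citrate synthase, differed by -1.75 ± 0.20 and Atp5b by -1.23 ± 0.22. Sdha, Mdh2 and Atp5c1 did not pass and had intervals within 2-fold, at -0.35 ± 0.22, -0.42 ± 0.18 and -0.34 ± 0.18. The 13 genes encoded in mitochondria summed to 10218 to 23159 CPM in microglia and 16386 to 27910.0 CPM in astrocytes, and none of the 13 passed; the sums overlapped, with microglia of mouse 26 the highest of the 4. In fatty acid handling, 23 of 32 passed as higher in astrocytes and 4 in microglia, with a median difference of -1.22. Acsbg1, Acsl6 and Acsl3, which activate fatty acids, differed by -8.89 ± 0.34, -8.64 ± 0.64 and -7.72 ± 0.41, and Acsl5 and Acsl4 by 5.09 ± 0.27 and 2.60 ± 0.17 the other way. Acsbg1 stood at 6.23, 5.08, 2.62 and 2.79 CPM in microglia and 2058, 2229, 1747 and 1488 CPM in astrocytes. Lpl, the lipoprotein lipase, and Ucp2, a mitochondrial carrier, were higher in microglia at 6.47 ± 1.26 and 4.64 ± 0.23; Lpl missed the threshold in the mice without Cre alone (adjusted p = 0.0501).

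Amino acid enzymes followed the same direction, with 16 of 40 higher in astrocytes and 1 in microglia beyond 4-fold and a median difference of -2.13. Cth and Cbs, which make cysteine from homocysteine, differed by -9.35 ± 0.57 and -7.84 ± 0.44, Gldc, which cleaves glycine, by -8.24 ± 1.13, and Abat, which breaks down GABA, by -7.98 ± 0.50. Aldh1l1, the folate enzyme whose promoter drives the Cre, stood at 2.998, 1.68, 2.35 and 1.59 CPM in microglia and 451, 523, 343 and 260.4 CPM in astrocytes. Glul, glutamine synthetase, often used as an astrocyte marker, was present in both at 473, 372, 589 and 785 CPM in microglia and 1804, 1650.3, 1986 and 1668 CPM in astrocytes, a difference of -1.73 ± 0.26 (adjusted p = 0.003) that did not pass against 4-fold. Gls2, a glutaminase, which runs the reverse reaction, was higher in astrocytes at -4.89 ± 1.02, at only 0.733, 2.01, 0.484 and 2.92 CPM. Arg2, an arginase, was the 1 gene higher in microglia beyond 4-fold, at 12.97, 42.3, 15.4 and 7.01 CPM, with mouse 26 the highest.

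Redox genes were divided by system. The NADPH oxidase of phagocytes was higher in the microglia sort, with 6 of 7 genes beyond 4-fold and a median difference of 10.96. Cybb, its catalytic subunit, stood at 219.8, 1187, 168 and 111 CPM in microglia and 0, 0, 0 and 0.746 CPM in astrocytes. It was highest in mouse 26, whose monocyte and neutrophil genes summed to 8551 CPM, against 1946 to 4370.4 CPM in the other microglia libraries. The part of these cells was not tested. Ncf1 differed by 11.01 ± 0.80 and Rac2 by 10.96 ± 1.35, while Rac1 did not pass (adjusted p = 0.055, and 0.021 without mouse 465). Of 24 glutathione and redox genes, 3 were higher in microglia and 6 in astrocytes beyond 4-fold. Gpx1, a glutathione peroxidase, stood at 962, 2489, 899 and 975 CPM in microglia, also highest in mouse 26, and 35.3, 39.3, 39.3 and 59.6 CPM in astrocytes. Prdx6, a peroxiredoxin, ran the other way at 91.2, 191, 87.3 and 86.4 CPM in microglia and 4035, 4094, 3595 and 3213 CPM in astrocytes. Gstm1 and Gstm5, glutathione transferases with close paralogs whose reads may not be separable, differed by -5.79 ± 0.45 and -5.86 ± 0.23, and Hmox1, heme oxygenase 1, by 3.47 ± 0.19. In the pentose phosphate list, Pgd was higher in microglia at 2.21 ± 0.18 and the malic enzymes Me1 and Me3 in astrocytes at -8.63 ± 0.66 and -6.54 ± 1.14.

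Cholesterol synthesis was higher in astrocytes in 20 of 21 genes, 12 of them beyond 4-fold, with a median difference of -2.76. Sqle, the squalene epoxidase, stood at 11.6, 6.64, 16.4 and 5.45 CPM in microglia and 252, 254, 239 and 162 CPM in astrocytes, and Msmo1, a sterol demethylating enzyme, differed by -4.27 ± 0.26. Ebp, the sterol isomerase, was the exception, higher in microglia at 1.40 ± 0.15 (adjusted p = 0.00081), with 80.8, 70.8, 103 and 98.2 CPM in microglia and 26.8, 30.6, 37.2 and 38.4 CPM in astrocytes, and the groups did not overlap. Lipid mediators were divided instead. Of 20 eicosanoid genes, 10 were higher in microglia and 4 in astrocytes beyond 4-fold. Alox5ap, Ltc4s and Alox5, of the leukotriene pathway, differed by 10.85 ± 0.43, 10.34 ± 0.74 and 9.44 ± 0.80. The prostaglandin D synthases took opposite sides: Hpgds differed by 9.22 ± 0.55, and Ptgds by -7.23 ± 0.49, at 316, 345, 1072 and 2514 CPM in astrocytes, where mouse 759 with its oligodendrocyte sum was highest. Ephx2, an epoxide hydrolase, differed by -8.67 ± 0.97.

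Secreted factors were sent from different sides. Of 33 cytokines and chemokines, 24 were higher in microglia and 5 in astrocytes beyond 4-fold, with a median difference of 7.67. Ccl4, a chemokine, stood at 2027, 1002, 2039 and 1323 CPM in microglia and 0.520, 0.629, 0.0842 and 0.107 CPM in astrocytes. Il1a, an inflammatory cytokine, stood at 533, 217, 322 and 422 CPM in microglia and 0.237, 0, 0 and 0.0852 CPM in astrocytes. Ccl3, Ccl6 and Ccl12 differed by 11.75 ± 1.16, 11.79 ± 1.07 and 11.58 ± 1.55. Tnf had 192, 79.6, 99.3 and 199 CPM in microglia and a ratio of 13266 with a 95% counting interval of 3672 to 109540.3, and Cxcl2 had no astrocyte count and was at least 8599.5-fold higher. These levels stand beside the sums of dissociation genes given above, which were also higher in microglia of every mouse. Il1b was uneven, at 303, 1120.2, 277 and 126 CPM, highest in mouse 26 with its monocyte and neutrophil sum, and so were Il10, at 1.41, 63.00, 0.978 and 0.795 CPM, and Il1rn, at 19.5, 76.1, 25.3 and 8.69 CPM. Astrocytes held Cxcl14, at 1.58, 1.93, 0.212 and 0.986 CPM in microglia and 561, 573, 437 and 189.6 CPM in astrocytes, Il33, an alarmin of the nucleus, at 0.910, 2.42, 0.925 and 0.521 CPM in microglia and 274, 324, 315 and 537 CPM in astrocytes, and Il18, at 50.5, 44.02, 69.4 and 57.6 CPM in microglia and 341, 326, 378 and 261 CPM in astrocytes. Of these, Il33 was highest in mouse 759, whose oligodendrocyte sum was highest. Cxcl5 had no count in microglia and was at least 57.1-fold higher in astrocytes. Cx3cl1, the ligand of Cx3cr1, differed by -5.05 ± 1.05.

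Growth factors and morphogens lay with astrocytes in 18 and with microglia in 5 of 39 cases beyond 4-fold, with a median difference of -2.97. Wnt7a stood at 0.0674, 0.328, 0 and 0 CPM in microglia and 79.1, 66.2, 59.7 and 41.6 CPM in astrocytes and Wnt7b differed by -8.99 ± 0.72; both Wnts are known for their part in vessel growth. Ptn, the growth factor pleiotrophin, stood at 7.07, 12.1, 1.56 and 3.70 CPM in microglia and 1029, 883, 921 and 1119 CPM in astrocytes, and Vegfa and Fgf1 differed by -5.84 ± 0.50 and -5.43 ± 0.30. Bdnf was at 5.09, 7.55, 2.80 and 2.56 CPM in astrocytes, a ratio of 578 with a 95% counting interval of 104 to 22819. From microglia came Igf1, Tgfb1, Pdgfb, Grn and Pros1. Igf1 differed by 5.93 ± 1.33 (adjusted p = 0.011, and 0.076 in the mice without Cre alone), Pdgfb by 5.34 ± 0.50 and Pros1 by 3.31 ± 0.32. Grn, the lysosomal protein progranulin, stood at 1526, 976, 2371 and 1652 CPM in microglia and 80.1, 81.7, 72.6 and 69.6 CPM in astrocytes. Csf1, a ligand of Csf1r, stood at 60.3, 40.4, 54.6 and 50.4 CPM in microglia and 48.6, 59.8, 39.6 and 48.4 CPM in astrocytes, a difference of 0.069 ± 0.22 (adjusted p = 0.8), and Gas6 at 0.049 ± 0.32 (adjusted p = 0.9). Il34, the other ligand of Csf1r, was uneven in astrocytes, at 2.32, 1.81, 4.44 and 47.6 CPM, highest in mouse 759, and did not pass (adjusted p = 0.051, and 0.008 without mouse 26). Il34 did pass with DESeq2's Wald test (adjusted p = 4.3e-05) and with limma voom (adjusted p = 0.015).

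Complement genes were divided, with the C1q chains and receptor genes higher in microglia. The 3 chains of C1q stood at means ± SD of 1711 ± 514 CPM, 7271 ± 3475 CPM and 1765 ± 704 CPM in microglia and 0.352 ± 0.188 CPM, 3.13 ± 2.69 CPM and 1.11 ± 0.923 CPM in astrocytes, for C1qa, C1qb and C1qc. C1ra and C1s1, the proteases that act with C1q, did not pass at 2.23 ± 0.88 and -2.35 ± 2.27 (adjusted p = 0.07 and 0.41; C1ra passed without mouse 759, at 0.02), and C2, a further component of the pathway, was higher in astrocytes at -2.04 ± 0.57 (adjusted p = 0.024), but not without mouse 22, 26 or 465 (adjusted p = 0.096, 0.067 and 0.055) or in the mice without Cre alone (adjusted p = 0.19). C3 differed by 4.53 ± 0.63 but was uneven, at 24.3, 98.9, 27.4 and 10.9 CPM in microglia, with mouse 26 the highest. C4b did not pass at -0.80 ± 0.40, with 13.3, 15.7, 45.2 and 27.2 CPM in microglia and 38.3, 48.6, 31.5 and 39.3 CPM in astrocytes; the groups overlapped (adjusted p = 0.14, and 0.026 without mouse 465). Clu, clusterin, a chaperone that also inhibits complement, stood at 36.3, 42.3, 4.68 and 18.1 CPM in microglia and 6172, 7170.2, 7462 and 5714 CPM in astrocytes. Of the 19 complement genes tested, 9 were higher in microglia and 2 in astrocytes beyond 4-fold.

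Synapse and matrix proteins lay with astrocytes in 23 of 32 cases and with microglia in 2 beyond 4-fold, with a median difference of -6.40, or -6.39 with the gene without microglial counts at its bound. Lgi1, a synaptic protein linked to epilepsy, stood at 0.0674, 0.328, 0.0264 and 0 CPM in microglia and 162, 167, 164 and 93.9 CPM in astrocytes. Chrdl1, an astrocyte factor of synapse maturation, stood at 0.0674, 0.246, 0 and 0.164 CPM in microglia and 194, 205, 196 and 145 CPM in astrocytes. Nlgn3, an adhesion protein of synapses, differed by -10.15 ± 0.49, and the matrix proteoglycan genes Bcan and Ncan by -9.29 ± 0.47 and -8.50 ± 0.50. Sparcl1, an inducer of synapses, and its antagonist Sparc took opposite sides: Sparcl1 stood at 53.9, 58.3, 13.6 and 15.6 CPM in microglia and 6380.3, 8076, 5758 and 5180.4 CPM in astrocytes and Sparc at 5816, 3011, 5804 and 5671 CPM in microglia and 760.1, 1187, 853 and 1101 CPM in astrocytes. Sparc passed at 2.36 ± 0.36 (adjusted p = 0.003) but not against 4-fold. Olfml3 and Thbs1 were the matrix genes higher in microglia beyond 4-fold, at 8.87 ± 0.55 and 7.80 ± 0.86.

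Of 33 proteases and their inhibitors, 15 were higher in microglia and 8 in astrocytes beyond 4-fold. Ctss, a lysosomal protease of antigen processing, stood at 10349, 7036, 13365 and 13132 CPM in microglia and 2.39, 7.34, 3.60 and 2.75 CPM in astrocytes. Mmp9 differed by 11.51 ± 0.50, Ctsd by 3.86 ± 0.47 and Lgmn by 4.54 ± 0.43. Monocyte and neutrophil genes summed to 1946 to 8551 CPM in the microglia libraries, and the part of those cells in Mmp9 was not tested. Cst3, the cathepsin inhibitor cystatin C, was abundant in both at 27863, 16924, 28912 and 33834 CPM in microglia and 8572, 9928, 8411 and 7418 CPM in astrocytes; it passed at 1.61 ± 0.37 (adjusted p = 0.012) but not against 4-fold, and not without mouse 22 or mouse 465 (adjusted p = 0.072 and 0.056). Per length it was the highest of the secreted factor genes in each cell type. Astrocytes held Htra1 at -9.28 ± 1.28 and Timp4 and Timp3, inhibitors of metalloproteases, at -8.61 ± 0.55 and -7.09 ± 0.52. Serpina3n, a gene of reactive astrocytes, stood at 11.1, 17.3, 7.39 and 10.99 CPM, had no count in microglia and was at least 502-fold higher. Of 11 lipid carriers, 7 were higher in astrocytes and 1 in microglia beyond 4-fold. Lcat, which esterifies cholesterol, differed by -9.31 ± 0.50. Mouse Apoe, which carries lipids between glia, stood at 40.8, 59.5, 33.8 and 48.8 CPM in microglia and 287, 313, 383 and 263 CPM in astrocytes; how reads shared by human APOE and mouse Apoe were assigned was not stated, so these counts cannot be told apart from reads of the human gene. Apoc2 had 37.3, 141, 11.8 and 4.41 CPM in microglia, highest in mouse 26.

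Gene families were examined for members on both sides. Of 31 families, 14 had members that passed in both directions, and 5 had members beyond 4-fold in both directions. Since 28.6% and 30.2% of all genes passed as higher in microglia and in astrocytes, and 10.8% and 14.4% beyond 4-fold, these counts are a description and were not tested. Here levels are set between genes, so they are given per kilobase of exon (RPKM). In the light chain amino acid transporters, Slc7a8 stood at 76.9 RPKM in microglia and 0.281 RPKM in astrocytes, Slc7a7 at 49.8 and 0.764, Slc7a10 at 0.152 and 230.0 and Slc7a11, the cystine exchanger, at 1.24 and 22.9. The organic anion transporter Slco2b1 stood at 164 RPKM in microglia and 0.907 RPKM in astrocytes and Slco1c1 at 1.52 and 144. The inward rectifiers were Kcnj2, at 4.51 and 0.204, and Kcnj10 and Kcnj16, at 0.795 and 53.7 and 1.03 and 56.1. For the TGF-beta ligands, Tgfb1 stood at 1.45 RPKM in microglia and 0.0282 RPKM in astrocytes, Tgfb2 at 0.311 and 9.67 and Tgfb3 at 0.120 and 2.73, so the highest of the 3 differed between the cell types. Hexokinases and sugar carriers did the same without passing beyond 4-fold both ways: Hk2 stood at 55.1 RPKM in microglia and 0.498 RPKM in astrocytes, Hk3 at 29.05 and 0.0207 and Hk1 at 3.77 and 11.2; Slc2a5 stood at 218 RPKM in microglia and 0.0280 RPKM in astrocytes, Slc2a1 at 19.4 and 63.1 and Slc2a3 at 10.4 and 1.15. In microglia the order of these sugar carriers was Slc2a5, then Slc2a1, then Slc2a3, and in astrocytes Slc2a1 was the highest.

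**Figure D3:**
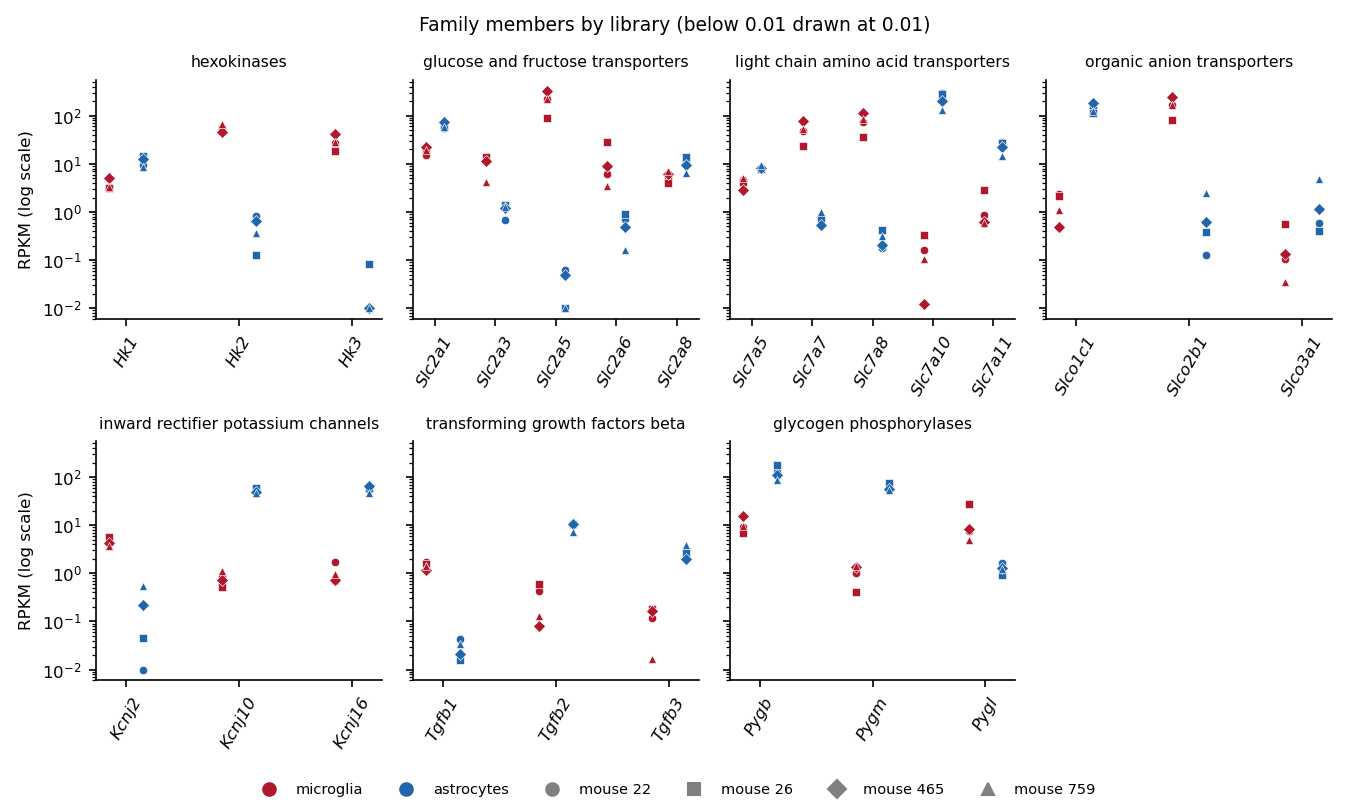
Levels per kilobase of exon (RPKM, logarithmic axis) of the members of 7 gene families in the 4 microglia libraries (red) and 4 astrocyte libraries (blue), 1 point per library with the shape giving the mouse, and values below 0.01 drawn at 0.01. The member with the highest mean differs between the cell types for hexokinases (Hk2 and Hk1), sugar carriers (Slc2a5 and Slc2a1), light chains (Slc7a8 and Slc7a10) and TGF-beta ligands (Tgfb1 and Tgfb2).

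Ligands and receptors were then set side by side, for 48 known pairs of which 45 had both genes tested. In 5 pairs the ligand was higher in astrocytes and the receptor in microglia beyond 4-fold: Cx3cl1 with Cx3cr1, Tgfb2 with Tgfbr2, Il33 with Il1rl1, Il18 with Il18r1, and Rarres2 with Cmklr1. Il1rl1, the receptor of Il33, was low, at 7.95, 6.15, 8.12 and 8.08 CPM in microglia and without a count in astrocytes. Il18r1 was lower still, at 0.337, 1.84, 0.450 and 0.466 CPM, highest in mouse 26. Rarres2, the ligand chemerin, stood at 28.3, 28.1, 81.1 and 84.2 CPM in astrocytes, and its receptor Cmklr1 differed by 9.21 ± 0.86. Rarres2 was higher in astrocytes of mice 465 and 759, as were the endothelium sums and the ependyma and choroid plexus sums of that sort. Il33 was highest in astrocytes of mouse 759, the library with the highest oligodendrocyte sum. For Cx3cl1, which neurons make, the neuron marker genes summed to 78.7 to 147 CPM in the astrocyte sort and 14.6 to 33.9 CPM in microglia. The part of these other cells was not tested. In 1 pair the ligand was higher in microglia and the receptor in the astrocyte sort: Pdgfb, at 117, 80.8, 56.96 and 88.00 CPM in microglia and 1.40, 1.30, 1.58 and 6.01 CPM in astrocytes, with Pdgfrb, at 1.99, 6.23, 1.48 and 1.92 CPM in microglia and 101, 119.7, 101 and 203 CPM in astrocytes. Pdgfrb is a defining gene of pericytes, and it was highest in astrocytes of mouse 759, the library with the highest pericyte sum. Ligand and receptor were both higher in microglia in 9 pairs, such as C3 with C3ar1 and Il6 with Il6ra, and both higher in astrocytes in 8, such as Ptn with Ptprz1 and Wnt7a with Fzd9. At an adjusted p under 0.05 with no limit on size, the numbers were 7, 2, 10 and 10. Psap with Gpr37l1 was among the 2 toward the astrocyte receptor: Psap, the precursor of saposins, differed by 1.21 ± 0.25 (adjusted p = 0.008, and 0.052 without mouse 22), and its proposed receptor Gpr37l1 by -9.63 ± 0.89. RNA levels of 2 genes do not measure signalling between the cells.

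**Figure D4:**
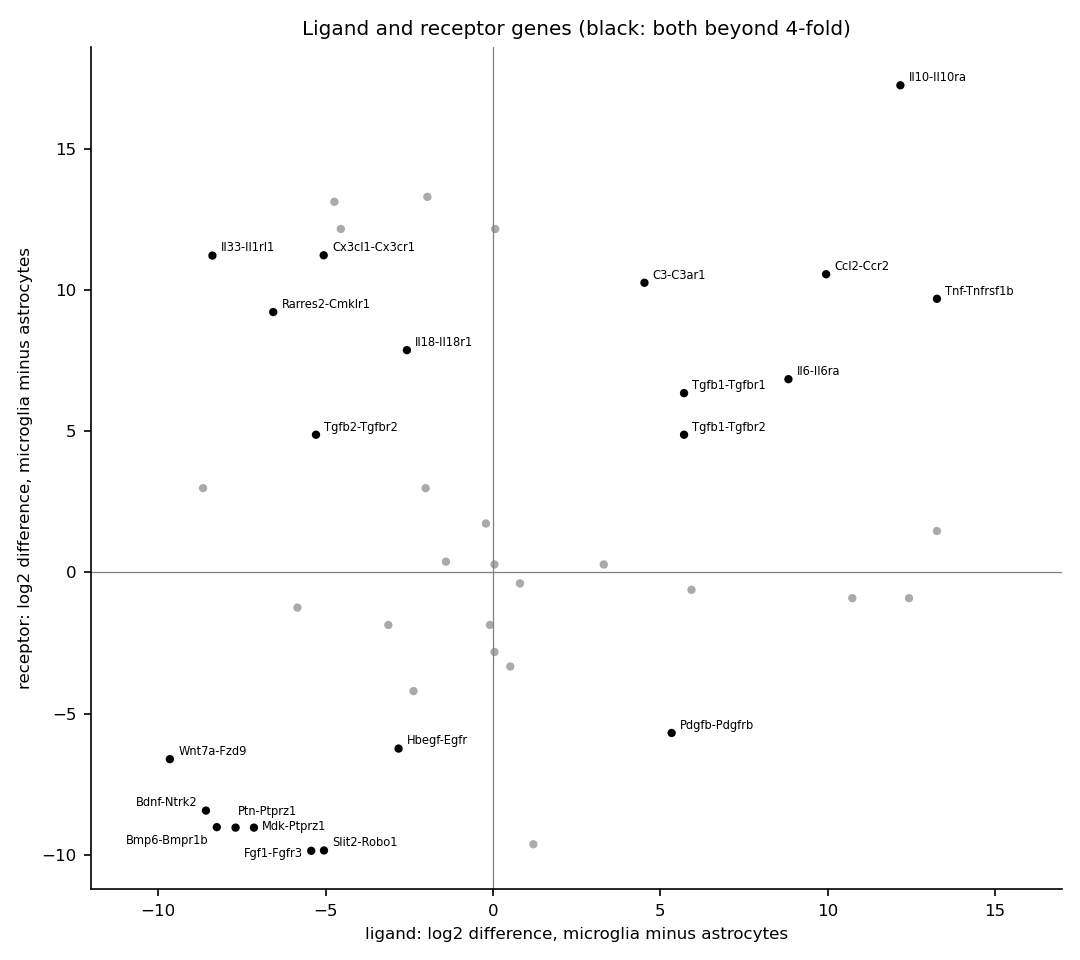
Log2 difference (microglia over astrocytes) of the ligand (horizontal axis) and receptor (vertical axis) of each tested pair, 1 point per pair, with lines at 0 and pairs with both genes beyond 4-fold in black; pairs that are not reported here are not drawn. The 5 black pairs in the upper left have the ligand higher in astrocytes and the receptor higher in microglia, and Pdgfb with Pdgfrb lies in the lower right.

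The 4 mice differ in Cre, so the human gene it acts on was read first. Values of human APOE are without TMM scaling, in the order of mice 465, 759, 22 and 26, and not on the scale of the mouse Apoe values above. In astrocytes human APOE stood at 1411 and 1052 CPM in the mice without Cre and at 521 and 926 CPM in mice 22 and 26. In microglia it stood at 71.8, 102, 77.5 and 99.8 CPM. An exact permutation test of 2 against 2 mice cannot reach 0.05, and the 2 astrocyte groups did not overlap. The difference between the cell types changed with Cre in none of the 17543 genes (0%; edgeR's quasi-likelihood test, lowest adjusted p = 0.113). At an unadjusted p under 0.05 there were 1931 genes, and DESeq2 called 632. The genes of lowest p were, with a difference nearer to microglia in mice with Cre, Rgs4, Ccdc153, Tmem212, Cldn5, Pcp4l1 and Abcc9, and with one nearer to astrocytes Rcan1, Ddit4, Cd163, Siglech, Il16 and Thrb. Ccdc153, a gene of ciliated cells, stood at 15.8, 18.6, 108 and 74.1 CPM in astrocytes, and the 8 genes of ependyma and choroid plexus summed there to 61.2 and 88.97 CPM in mice 22 and 26 against 329.5 and 277 CPM in mice 465 and 759. Cldn5, the tight junction gene of endothelium, stood at 3.34, 7.83, 21.3 and 65.1 CPM in astrocytes. The part of these cells was not tested. Cd163, a gene of border macrophages, stood at 7.82, 4.80, 44.2 and 23.3 CPM in microglia, beside border macrophage sums of 212, 349.9, 662 and 469 CPM.

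Finally the amyloid-free difference was set against the same difference in 9 APPPS1 mice, in 1 fit of 26 libraries with its own scaling. APPPS1 mouse 459 was left out, since its libraries carried the markers of the other cell type. Without TMM scaling, its library labelled microglia carried 42847 CPM of astrocyte identity genes and 152 CPM of microglia identity genes. Its library labelled astrocytes carried 191 and 42711 CPM. Of 20138 genes, 42 (0.209%) differed between amyloid states in the size of their microglia to astrocyte difference, 28 toward microglia and 14 toward astrocytes in APPPS1 mice. Of these 42, 8 were list members: Csf1, Axl, Psat1, Ephx1 and Fabp3 toward microglia, and Heph, Hapln1 and Gldc toward astrocytes. All 28 had a higher mean in APPPS1 than in amyloid-free microglia. Axl, higher in astrocytes in amyloid-free mice, had a lowest, median and highest value of 12.7, 18.8 and 26.4 CPM in amyloid-free and 73.9, 192 and 406 CPM in APPPS1 microglia. In astrocytes Axl stood at 119, 130.0 and 148 and 105, 127 and 143 CPM, and the change of the difference was 3.38 ± 0.41 (SE) (adjusted p = 0.005). Csf1 stood at 38.5, 50.7 and 57.8 CPM in amyloid-free and 168, 247 and 453 CPM in APPPS1 microglia, a change of 2.27 ± 0.26 (SE) (adjusted p = 0.005). The microglia groups of both genes were apart. Actr3b, a gene of the Arp2/3 actin complex that is higher in astrocytes, changed by 5.28 ± 0.54 (SE) (adjusted p = 0.003). Ank, Nceh1 and Baiap2l2 changed by 3.32 ± 0.40 (SE), 2.31 ± 0.30 (SE) and 10.46 ± 1.33 (SE).

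Of the 14 genes that moved toward astrocytes, 13 had a mean under 1 CPM in amyloid-free microglia. The exception was Klf10, with a change of -2.06 ± 0.34 (SE) (edgeR's quasi-likelihood test, adjusted p = 0.028). Its lowest, median and highest values were 213, 288 and 369 CPM in amyloid-free and 65.3, 90.7 and 196 CPM in APPPS1 microglia, without overlap. The low genes were led by p-value as follows. Gldc had a lowest, median and highest value of 0, 0.312 and 1.10 CPM in amyloid-free and 0, 0 and 0.0297 CPM in APPPS1 microglia, against 65.7, 88.6 and 101 and 66.7, 90.2 and 99.3 CPM in astrocytes. Heph, Hapln1, Rgs20, Adgrb3 and Hhatl were alike in this, with means of 0.311, 0.376, 0.489, 0.318 and 0.476 CPM in amyloid-free microglia. Beside them, the astrocyte identity genes summed to 264 to 387 CPM, without TMM scaling, in the 4 amyloid-free microglia libraries and to 132 to 240 CPM in the 9 of APPPS1 mice, without overlap. The part of this astrocyte RNA was not tested. Microglia of mouse 26 are among the 4 amyloid-free libraries, and the number of genes called was 42 with it and 14 without it, and 10 without mouse 22. Baiap2l2, Rgs20, Adgrb3, Gldc and Hhatl did not pass without either mouse, nor Hapln1 without mouse 22 (adjusted p = 0.068), and DESeq2 called 611 genes.

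**Figure D5:**
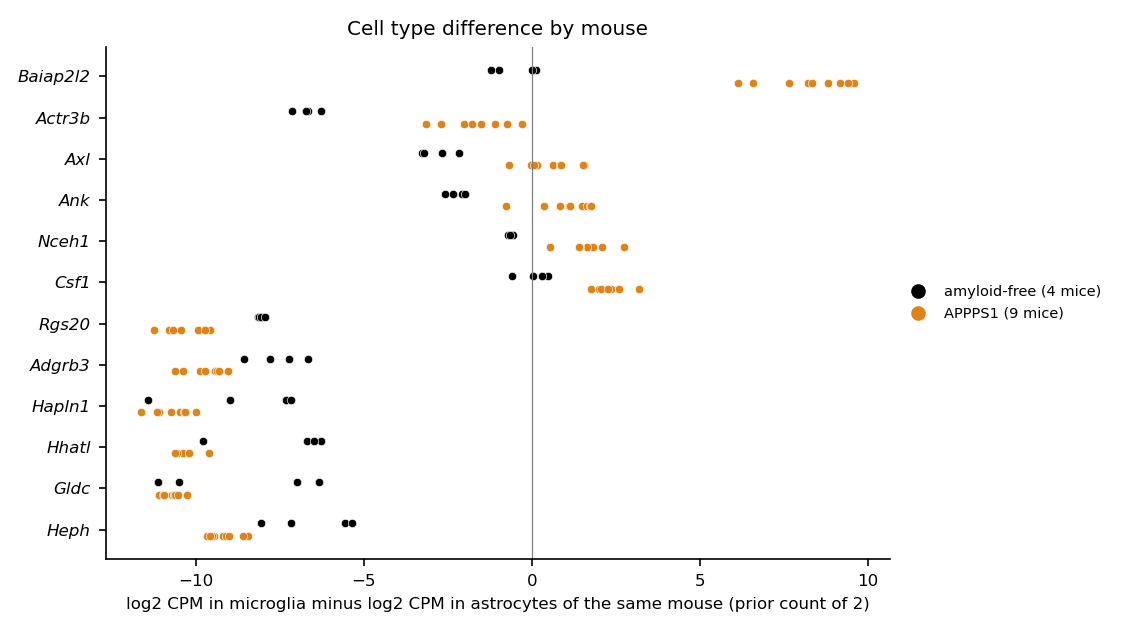
Log2 difference between microglia and astrocytes of the same mouse (horizontal axis, with a prior count of 2 added) for 12 genes whose difference changed with amyloid, 1 point per mouse, for 4 amyloid-free mice (black) and 9 APPPS1 mice (orange). For Axl, Csf1, Actr3b, Ank, Nceh1 and Baiap2l2 the APPPS1 mice lie above the amyloid-free mice, for Heph, Rgs20 and Adgrb3 they lie below, and for Hapln1, Hhatl and Gldc the groups overlap.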

How the data were processed

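RNA was extracted with a column kit for small samples and libraries were made with a SMARTer kit, per the labels. The deposited values are raw counts per gene, made with bcl2fastq, STAR and featureCounts on GRCm38 and GRCh38 per the submitters' processing notes; settings, strand and releases are not given in the sources used here; antisense partners cannot be told apart. The table has 95966 rows; repeated rows of 258 gene IDs, equal in their counts, were dropped, leaving 40481 mouse and 55093 human genes; human genes, 0.0559% to 0.195% of counts, were left out of library sizes and tests. GENCODE M21 gave positions and exon lengths for 40254 mouse genes. Counts were tested in edgeR 4.0.16 (R 4.3.3): filterByExpr by cell type, TMM, a quasi-likelihood F test with mouse as a block, glmTreat against 4-fold, and Benjamini-Hochberg adjustment over all genes tested. The pairing comes from the labels, since both sorts are from 1 animal; deviations of same-mouse libraries correlated at -0.0683 to 0.03. No 2 libraries were duplicates (the lowest chi-square between replicates was 39.1 for each degree of freedom). P-values measure the spread between these 4 mice. Alternatives were DESeq2 1.42.0, limma 3.58.1 voom, other size factors, no filter, no block, 26 libraries, each Cre state alone, and leaving out each mouse. The test was checked on simulated counts with few changed genes, a fixed dispersion and a mouse effect shared by both sorts. That check does not cover data in which most genes differ. Lists and members were chosen with earlier results of these data known. Named genes are up to 6 per direction of each list with the largest differences beyond 4-fold, up to 3 abundant members that did not pass, family and pair members and the 12 largest differences each way; other genes named were chosen after their values were seen. Promoters are RefSeq's. Sequences of proteins were not used here. Some genes counted within lists are not reported by name here.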

Additional observations from a re-analysis of the deposited data

Results flagged for a closer look

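Of 323 groups of 4 libraries, taken from the named genes in the cell type where each is higher and from the marker sums, 43 had 1 library far from the other 3 by Dixon's 95% criterion, or 13.3%. Chance flags about 1 in 20 such groups. Values are in CPM, with the range of the other 3 libraries in parentheses. High in microglia of mouse 26, whose sum of monocyte and neutrophil genes was the highest of the 4, were Ackr1 at 9.80 (0.548 to 1.56), Cebpb at 400.3 (58.4 to 83.2), Cybb at 1187 (111 to 219.8), Fpr1 at 166 (13.5 to 30.5) and Fpr2 at 99.6 (6.30 to 13.1). Others there were Gpx1 at 2489 (899 to 975), Il10 at 63.00 (0.795 to 1.41), Il18r1 at 1.84 (0.337 to 0.466), Pygl at 188 (34.2 to 57.5) and Slc16a3 at 120.1 (43.04 to 54.9). Low in the same library were Gbe1 at 22.7 (32.5 to 34.3), Hpgds at 350.5 (646 to 703), Il1rl1 at 6.15 (7.95 to 8.12), Itgam at 796 (1069.9 to 1102) and Siglech at 948 (1508 to 1619). Others there were Sparc at 3011 (5671 to 5816). In astrocytes of mouse 759, the summed markers of pericytes and smooth muscle stood at 2490.2 CPM (214 to 461), those of border macrophages at 37.1 CPM (11.3 to 12.5) and those of dissociation at 491 CPM (172 to 217). High in that library were Abcc9 at 120.4 (4.47 to 16.3), Ank at 161 (85.1 to 89.9), Fgfr2 at 156 (127 to 128), Il34 at 47.6 (1.81 to 4.44) and Mdh2 at 529 (445 to 459). Others there were P2ry14 at 185 (12.7 to 23.9), Rgs4 at 305 (14.2 to 57.2) and Tyro3 at 54.4 (31.8 to 33.8). Low in it were Aldoc at 7945 (9641 to 9880.3), Aqp4 at 539 (779 to 822), C2 at 1.70 (4.23 to 4.48), Gabrb1 at 135 (219 to 230.5) and Gabrg1 at 199.9 (284 to 292). Others there were Lgi1 at 93.9 (162 to 167), Ncan at 2066 (2380.5 to 2432), Slc1a2 at 3603 (4425 to 4582), Sqle at 162 (239 to 254) and Tgfb2 at 40.9 (60.2 to 62.6). In microglia of mouse 465, values far from the other 3 were found for Irf5 at 482 (326 to 346) and Tlr13 at 307 (196 to 211). In astrocytes of mouse 22, values far from the other 3 were found for Lrp4 at 585 (479.8 to 484). In astrocytes of mouse 26, values far from the other 3 were found for Slc6a9 at 146 (75.00 to 85.8). In astrocytes of mouse 465, values far from the other 3 were found for Gstm5 at 1361 (1266 to 1280.0) and Id2 at 1734 (1341 to 1396).

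The difference between microglia and astrocytes also differed between APPPS1 and amyloid-free mice for 12 named genes, by the interaction term of edgeR's quasi-likelihood test. On the log2 scale the difference, microglia minus astrocytes, shifted toward microglia in APPPS1 mice by 5.28 for Actr3b, 2.27 for Csf1, 3.38 for Axl, 3.32 for Ank, 2.31 for Nceh1 and 10.46 for Baiap2l2, and toward astrocytes with changes of -5.65 for Heph, -5.18 for Hapln1, -2.81 for Rgs20, -2.94 for Adgrb3, -5.57 for Gldc and -5.26 for Hhatl.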

How the results depend on the processing

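The number of genes that differed between the cell types was 10311, and 7896 to 12272 under the alternatives. The number beyond 4-fold was 4416, 3541 to 5136 with that threshold under the alternatives, and 2936 against 8-fold. The number with an interval inside 2-fold was 2829, and 1584 to 2744 when 1 mouse was left out, lowest without mouse 22. The fit without the replicate block, which drops the pairing by mouse, called 11253 genes and 4819 beyond 4-fold; for this difference it ended the call of no named gene, and 8 that had not passed then did. The difference with Cre had 0 genes in every edgeR fit and 632 in DESeq2. The difference with amyloid had 42 genes, 611 in DESeq2 and 10 to 46 when 1 amyloid-free mouse was left out, lowest without mouse 22. An alternative without the replicate block also let the amyloid change differ with Cre, so its term was the change in mice without Cre. It called 16 genes. Of the 12 named genes, 9 no longer passed in it, among them Gldc, which changed sign, at 1.44. Dropping the pairing and reading the mice without Cre cannot be told apart here. None of the 267 named genes that passed changed direction under any of the 12 alternatives run, and 0 lost their call with DESeq2, limma voom, DESeq2 size factors, no filter or the fit of 26 libraries. Leaving out mouse 22, 26, 465 or 759 ended the call of 6, 1, 6 and 3 of them, among them Aldoa, Cst3 and Psap. In Cre-negative mice alone 8 calls were lost, among them Igf1, Lpl, Notch2 and Tlr3, and in Cre-positive mice alone 3. Some named genes that had not passed gained a call. With DESeq2's Wald test these included Il34, Mdh2, P2ry1, C1ra and Fth1 (adjusted p = 4.3e-05, 0.003, 0.006, 0.011 and 0.034). The same genes also passed with limma voom. Signs changed with DESeq2 size factors for Csf1 (-0.00445) and Gas6 (-0.025), with DESeq2 for Csf1 (-0.00438) and Gas6 (-0.0252), in Cre-positive mice alone for Cldn5 (1.28), Csf1 (-0.13), Etv5 (-0.35), Gas6 (-0.46), Gbe1 (-0.0735), Lifr (-0.24), Mertk (-0.00112) and Pkm (-0.0456), and in Cre-negative mice alone for Ackr1 (-0.68), Ddit4 (0.35) and Hes1 (-0.32). With 1 mouse left out, the ranges of genes whose sign changed were Ackr1 -0.85 to 1.08, Csf1 -0.0689 to 0.22, Etv5 -0.12 to 0.31, Gas6 -0.28 to 0.30, Hes1 -0.13 to 0.52, Lifr -0.00505 to 0.60 and Pkm -0.11 to 0.23. None of these had passed in the main fit. Within a Cre state, Cldn5 and Ddit4 did pass edgeR's quasi-likelihood test. Cldn5 passed in both directions, at -4.30 in Cre-negative mice (adjusted p = 0.0016) and 1.28 in Cre-positive mice (adjusted p = 0.035). Ddit4 passed at -2.56 in Cre-positive mice alone (adjusted p = 0.0035). The causes of these shifts were not tested. Depth limits genes without a count: 3 counts over the 4 libraries equal 0.0234 CPM in microglia and 0.0161 CPM in astrocytes, for counting error only.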
